A study of Mus musculus with 20 samples.

Results

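A set of 102 transcripts had more ribosome footprints on ribosomes captured through RPL10A and on ribosomes captured through RPS25 than on all ribosomes of the same mouse embryonic stem cells. Footprints are the mRNA fragments that ribosomes protect from RNase, and their sequencing is called Ribo-Seq. The set was chosen from 7704 transcripts that had values in the RPL10A, RPS25 and RNA-seq tables. For each transcript, the capture ratio was log2 of (mean RPKM of 2 captured libraries + 1) over (mean RPKM of 2 total libraries + 1), where RPKM is the read number scaled by transcript length and library size. Members had an RPL10A ratio of at least 0.7 and an RPS25 ratio of at least 0.6. Both thresholds were met by 106 transcripts, and 4 of these were set aside by identifier. The capture ratios of the members are therefore a description of the choice and carry no test.

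The cells were E14 mouse embryonic stem cells, a pluripotent line grown in serum with leukemia inhibitory factor, and each of the 10 groups held 2 libraries. In the 3xFLAG-Rpl10a line and the Rps25-3xFLAG line, 1 endogenous allele carried the tag, and ribosomes were immunoprecipitated (IP) with anti-FLAG beads. In the Rpl22-3xHA line, 1 allele carried an HA tag and an anti-HA antibody was used. Each line's total libraries came from ribosomes pelleted through a sucrose cushion, although for the Rpl22-3xHA line the labels list the antibody under the total samples as well. RNA-seq was made from wild-type E14 cells that received Rpl10a siRNA or control siRNA. Heavy pools held the polysome fractions with at least 4 ribosomes per mRNA, and light pools held everything lighter, up to polysomes of 2 to 3 ribosomes. All cells received cycloheximide at 100 µg/ml for 1 min before harvest. The labels do not say whether a line was 1 clone, nor that replicates came from separate cultures. The p-values therefore reflect the spread among these libraries alone, and that spread may be technical. Column sums ran from 1082511 to 1201737 in the Ribo-Seq tables and from 943664 to 1067209 in the RNA-seq tables. The values hold no counts, so the read depth is unknown.

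A ribosome joins a small and a large subunit, each built of RNA and many proteins. RPL10A is a large-subunit protein of the L1 stalk, a flexible arm beside the site where spent tRNA leaves, and RPS25 is a small-subunit protein that some viral mRNAs need to start translation without a cap. RPL22 is another large-subunit protein, located on the outer surface. The design asked whether ribosomes that hold a given protein carry particular mRNAs. Transcripts are given by UCSC identifier, since the files and reference tables at hand pair none of them with a gene name. Roles of the members, markers of the cells and the level of Rpl10a after knockdown were therefore not analysed here.

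In the 3xFLAG-Rpl10a line the members had median footprint densities of 16.0 and 20.6 RPKM in the IP libraries, against 7.60 and 8.25 RPKM in the total libraries. In the Rps25-3xFLAG line the medians were 14.8 and 14.1 RPKM in the IP libraries, against 7.80 and 7.35 RPKM in the total libraries. The 7602 other transcripts of these tables had medians between 26.3 and 27.3 RPKM in all 8 libraries, so the members were sparse in total ribosomes and less so in the captures. Of the members, 61 lay below 10 RPKM in the mean of the RPL10A total libraries (59.8%), against 20.4% of the other transcripts. Low total values enter the ratio, so the levels in these 8 libraries are part of the choice.

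The RPL10A ratios of the members ran from 0.70 to 2.13 with a median of 0.95, and the RPS25 ratios from 0.60 to 2.60 with a median of 0.79. The RPL10A ratio was the larger one for 75 of the 102 members. Both ratios were at or above 1 for 16 members. The member nearest to a threshold, uc007yxf.1, had ratios of 0.82 (RPL10A) and 0.60 (RPS25). The nearest transcript outside, uc009bay.1, had ratios of 0.6995 (RPL10A) and 0.69 (RPS25).

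**Figure D1:**
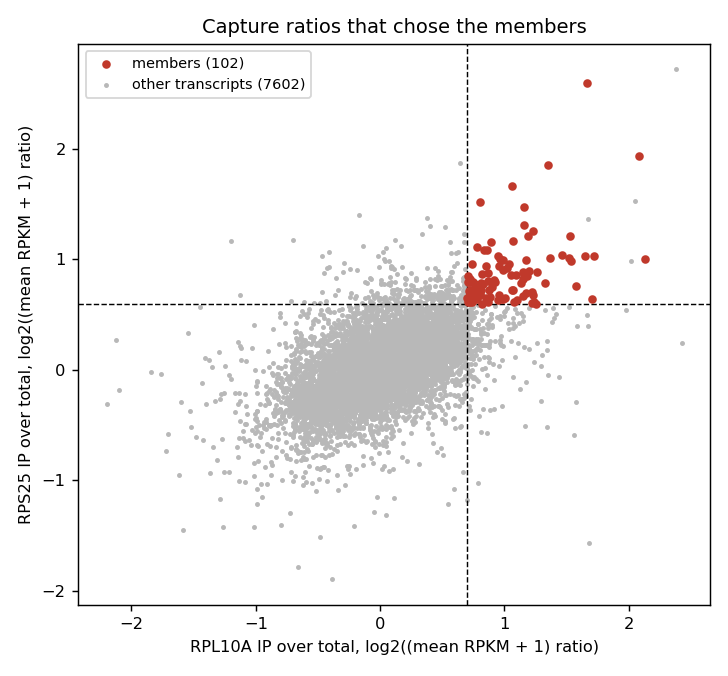
RPL10A ratio (x axis) against RPS25 ratio (y axis), each log2 of IP over total with 1 RPKM added; dashed lines are the thresholds of 0.7 and 0.6. The 102 members (red) fill the upper right corner and grey points within the corner are the 4 transcripts set aside.

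The members with the largest value of the smaller ratio were uc007vde.1 and uc008ijz.1. uc007vde.1 had 17.1 and 40.7 RPKM in the RPL10A IP libraries, against 5.7 and 6.4 RPKM in that line's total libraries. Its RPS25 IP libraries held 13.8 and 14.9 RPKM, against 3.1 and 2.9 RPKM in total libraries, for ratios of 2.08 (RPL10A) and 1.94 (RPS25). Neither line's IP values overlapped its total values. uc008ijz.1 averaged 17.2 ± 10.2 RPKM in the RPL10A IP, with replicate 2 at 24.4, and 4.75 ± 0.21 RPKM in that line's total libraries (SD, n = 2 each; ratio 1.66). In the RPS25 IP it had 9.2 and 14.2 RPKM, against 1.0 and 1.2 RPKM in total libraries (ratio 2.60). In total ribosomes both transcripts lay below the members' median.

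At the ends of the abundance range, uc008yki.2 had the highest total level and uc008emr.1 the lowest. uc008yki.2 averaged 486 ± 111 RPKM in the RPL10A IP and 267 ± 46.2 RPKM in that line's total libraries (SD, n = 2 each). In the Rps25-3xFLAG line it averaged 529.8 ± 10.5 RPKM in the IP and 345 ± 14.8 RPKM in total libraries (SD, n = 2 each). uc008emr.1 had 4.2 and 8.7 RPKM in the RPL10A IP libraries, against 0.7 RPKM in each of the total libraries. The set thus held abundant as well as rare transcripts.

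The 2 captured libraries of a line contributed unequally. With each IP library set against the mean of the total libraries, the members' median RPL10A ratio was 0.79 in IP replicate 1 and 1.14 in IP replicate 2, and 59 and 96 members reached 0.7. The median RPS25 ratio was 0.97 in IP replicate 1 and 0.65 in IP replicate 2, and 84 and 56 members reached 0.6. In the RPL10A IP, replicate 2 was above replicate 1 for 80 members and below it for 21, whereas 51.3% of all 7704 transcripts were higher in replicate 2. Total libraries were closer, with 57 members higher in replicate 2 and 41 in replicate 1 of the 3xFLAG-Rpl10a line. Without the second RPL10A IP library the same rule chose 67 transcripts, 59 of them members. The rule chose 146 without the first RPL10A IP library, 96 of them members. For the RPS25 line it chose 77 without the first IP library and 131 without the second, 56 and 84 of them members. Both IP libraries lay above both total libraries for 91 members in the RPL10A line and for 91 in the RPS25 line, where this held for 28.0% and 27.9% of all transcripts. It held in both lines for 81 members (13.4% of the 7704), a direction that the rule itself favours.

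**Figure D2:**
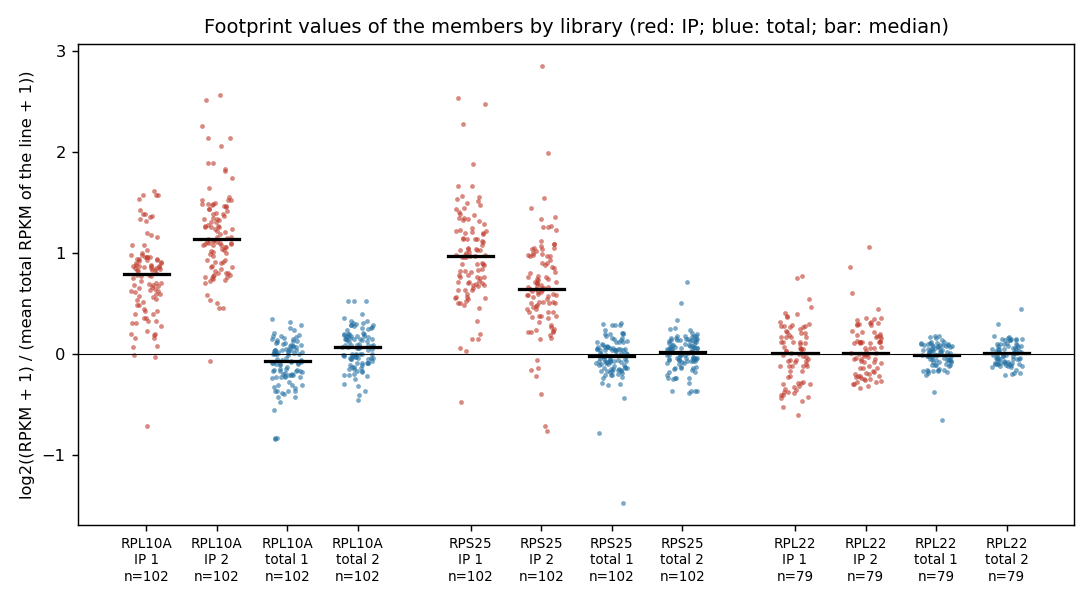
Footprint values of the members in each Ribo-Seq library (points), as log2 of (RPKM + 1) over the mean of the line's total libraries + 1, with IP libraries in red, total libraries in blue and medians as bars. Medians of the RPL10A and RPS25 IP libraries lie between 0.65 and 1.14, unequal within a line, and those of the RPL22 IP libraries lie at 0.01.

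The RPL22 capture was not used to choose the members and asked whether they were also over-represented on another kind of captured ribosome. Of the 102 members, 79 had RPL22 values. The members not listed there were sparser, with a median of 8.65 RPKM in the RPL10A IP and 4.40 RPKM in that line's total libraries, against 25.3 and 10.5 RPKM for the 79. The 23 not listed made up 22.5% of the members, and 5.50% of the other transcripts were not listed.

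In the Rpl22-3xHA line the 79 members had medians of 16.9 and 18.8 RPKM in the IP libraries, against 18.2 and 17.5 RPKM in the total libraries. These total libraries were taken as total by their titles, although their labels list the anti-HA antibody too. No member was called in limma, a linear model with variances moderated across transcripts, at a Benjamini-Hochberg adjusted p below 0.05, as 0 of 8588 transcripts passed (0.0% in either direction). At an unadjusted p below 0.05, 10 members were higher and 6 lower, with 8.87% and 11.3% of all transcripts. The median log2 difference of the members was 0.0015, and it was −0.034 over all transcripts. IP libraries lay above total libraries without overlap for 16 members and below for 18, with 21.5% and 31.4% of all transcripts. The RPL22 ratio was the smallest of the 3 capture ratios for each of the 79 members, whose other 2 ratios had been chosen as high.

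The smallest unadjusted p among members belonged to uc033iwc.1. It had 154.3 and 139.1 RPKM in the RPL22 IP libraries, against 84.9 and 97.1 RPKM in the total libraries. Its log2 difference was 0.68 (SE 0.10), with an unadjusted limma p of 7.68e-05 and an adjusted p of 0.105. The groups did not overlap. Its ratios of 0.96 for RPL10A and 0.94 for RPS25 were part of the choice of members. The other member with an RPL22 ratio of at least 0.6, uc008eju.2, was singled out after its values were seen. It had 14.2 and 17.5 RPKM in the RPL22 IP, against 8.2 and 7.6 RPKM in total libraries (log2 difference 0.91, SE 0.14, limma adjusted p = 0.105).

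Most of the 79 members had more footprints in total ribosomes of the Rpl22-3xHA line than in total ribosomes of the FLAG lines. The median log2 difference of the 79 members was 0.71 from the 3xFLAG-Rpl10a total libraries and 0.83 from the Rps25-3xFLAG total libraries, and −0.039 and −0.023 for 7184 other transcripts. More than 2-fold higher values were found for 28 members against either line (35.4%), and for 4.51% and 4.45% of the others. Set against the captured ribosomes of those lines, the Rpl22-3xHA total libraries had median differences of −0.32 from the RPL10A IP and −0.082 from the RPS25 IP. All these differences are set against the FLAG lines' values that chose the members, low totals and high IPs, so they are a description and carry no test. Low totals in the FLAG lines were part of the choice, the tables were normalized separately, and the listed lysis buffers and alignment tools differed between the Rpl22-3xHA and FLAG lines. The labels also list the anti-HA antibody under the Rpl22-3xHA total samples. The part of these in the difference was not tested.

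The total libraries of the Rpl22-3xHA line were higher than those of the 3xFLAG-Rpl10a line for 62 of the 79 members (78.5%, against 46.9% of the others). uc009kvb.2 went the other way, with mean totals of 6.95 RPKM in the Rpl22-3xHA line and 17.25 RPKM in the 3xFLAG-Rpl10a line. The 2 transcripts that follow, named again below, differed between lines by more than the members' median. uc009qah.3 had 1095.9 and 990.6 RPKM in the RPL22 IP libraries, against 965.3 and 937.4 RPKM in the total libraries of that line. In the 3xFLAG-Rpl10a line it had 471.9 and 535.8 RPKM in the IP, against 245.3 and 265.9 RPKM in total libraries. uc009ucs.1 differed further, with 56.6 and 47.0 RPKM in the RPL22 IP and 39.4 and 37.5 RPKM in its total libraries. In the 3xFLAG-Rpl10a line it had 5.8 and 7.7 RPKM in the IP, against 1.1 and 1.6 RPKM in total libraries.

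**Figure D3:**
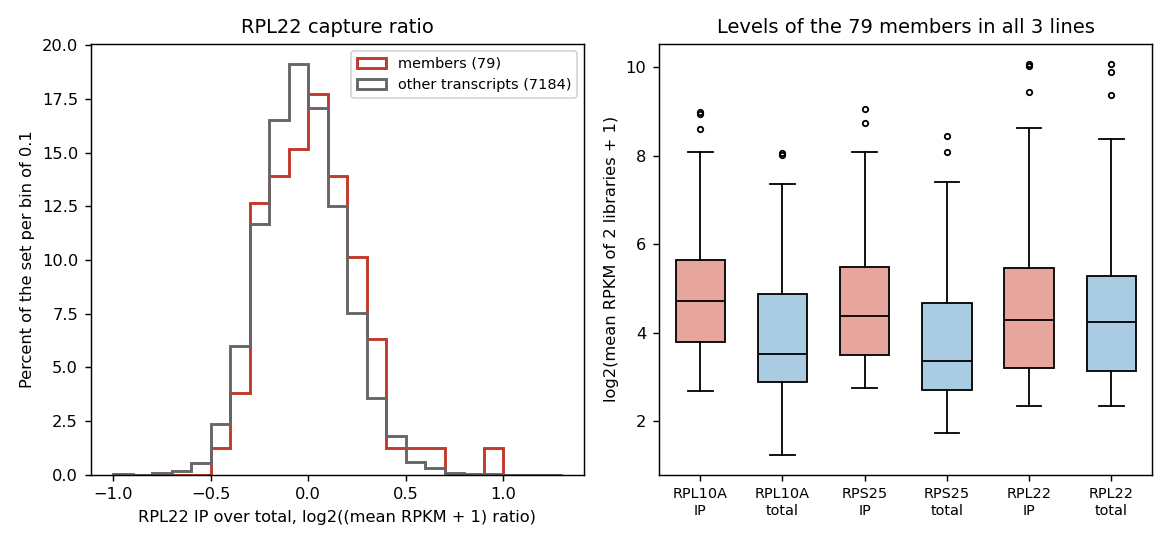
Left, share of each set (percent per bin of 0.1) by RPL22 capture ratio, for 79 members (red) and 7184 other transcripts (grey). Right, log2(mean RPKM + 1) of the 79 members in IP and total libraries of each line (boxes are quartiles, whiskers reach 1.5 times the quartile range), where the RPL22 total box sits above the total boxes of the FLAG lines and the RPL22 IP box (median of means 18.5 RPKM) sits beside it (17.9 RPKM).

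The RNA-seq values did not enter the capture ratios, although only transcripts listed in the RNA-seq tables could be members. They measured how the mRNAs were spread over a polysome gradient, where heavy fractions hold the mRNAs with most ribosomes. RNA-seq values are headed RPM, which stands for read numbers scaled by library size without a length term. Their sums differ from that of such a scale, so they are given here as a signal. The members were sparse here too, with medians of 14.6 and 14.3 in heavy and 18.2 and 16.6 in light pools with Rpl10a siRNA, and 13.7 and 14.8 in heavy and 18.1 and 15.7 in light pools with control siRNA. Other transcripts had medians between 47.1 and 52.5. By mean RNA level over the 8 libraries, 58 members fell in the lowest of 5 equal groups of all 8084 transcripts and 3 in the highest.

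The members lay more on the light than on the heavy side with either siRNA. Each library was scaled on its own, so the sides are relative to the other transcripts. With Rpl10a siRNA, 17 members, or 16.7%, were higher in heavy pools (31.6% of all transcripts were) and 32, or 31.4%, were higher in light pools (22.1% of all), by limma at an adjusted p below 0.05. The members' median log2 difference of heavy minus light was −0.29, and it was 0.16 over all transcripts. With control siRNA, 17 members were higher in heavy pools (28.0% of all) and 30, or 29.4%, in light pools (26.4% of all), with medians of −0.39 for the members and −0.041 for all transcripts. The light call was made with both siRNAs for 25 members and the heavy call for 11, where 17.0% and 19.6% of all transcripts had them. Both comparisons come from 1 fit.

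RNA level moved with this. In the lowest of the 5 level groups, the 58 members had median differences of −0.26 with Rpl10a siRNA and −0.40 with control siRNA, against 0.037 and −0.23 for all its transcripts. There 13 members were called light with Rpl10a siRNA (18.3% of the level group were) and 14 with control siRNA (25.5%). Heavy calls there were 6 with Rpl10a siRNA (14.8%) and 6 with control siRNA (11.1%). With control siRNA, the calls of these 58 members were thus close to the shares of their level group. In the next level group, 24 members had medians of −0.40 with Rpl10a siRNA and −0.25 with control siRNA, against 0.11 and −0.16 for all its transcripts. In the middle level group the order was the other way, with medians of 0.46 and 0.070 for 9 members, against 0.19 and −0.089 for all its transcripts. The 2 highest level groups held 8 and 3 members, with medians of −0.60 and −0.56 under Rpl10a siRNA, against 0.26 and 0.27 for all their transcripts. Under control siRNA these were −0.47 and −0.49, against 0.12 and 0.26. The members' medians were thus lower than those of transcripts of like level in 4 of the 5 level groups, a difference that was not tested.

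On the heavy side with Rpl10a siRNA, uc009ucs.1 and uc009qah.3 had the largest differences. uc009ucs.1 had a signal of 5.8 and 11.4 in heavy pools, against 1.6 and 1.9 in light pools (log2 difference 1.74, SE 0.35, limma adjusted p = 0.00385). Its groups did not overlap, although all its values were low. uc009qah.3 had 277.3 and 244.0 in heavy pools and 112.2 and 83.0 in light pools with Rpl10a siRNA (1.42, SE 0.19, limma adjusted p = 0.00068). Under control siRNA its signals were 310.5 and 221.6 in heavy pools, against 85.4 and 87.8 in light pools (1.59, SE 0.19, limma adjusted p = 0.000206), so it was on the heavy side with both. The largest heavy difference with control siRNA was that of uc009tku.1, with 93.0 and 97.9 in heavy pools and 24.9 and 25.9 in light pools (1.87, SE 0.12, limma adjusted p = 1.21e-05).

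On the light side with Rpl10a siRNA, uc033iwc.1 had 36.4 and 49.8 in heavy pools, against 159.6 and 171.3 in light pools (log2 difference −1.93, SE 0.17, limma adjusted p = 0.000127). The next was uc007hjt.2, with 2.6 and 6.7 in heavy pools and 10.8 and 15.9 in light pools (−1.42, SE 0.35, limma adjusted p = 0.00961). Its call was lost without the second Rpl10a light library (−1.16, limma adjusted p = 0.0596). With control siRNA, uc009kem.2 had 63.1 and 45.0 in heavy pools, against 196.5 and 132.7 in light pools (−1.58, SE 0.28, limma adjusted p = 0.00148). uc007brq.3 had 6.2 and 8.1 in heavy pools and 19.6 and 22.8 in light pools (−1.45, SE 0.17, limma adjusted p = 0.000178).

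**Figure D4:**
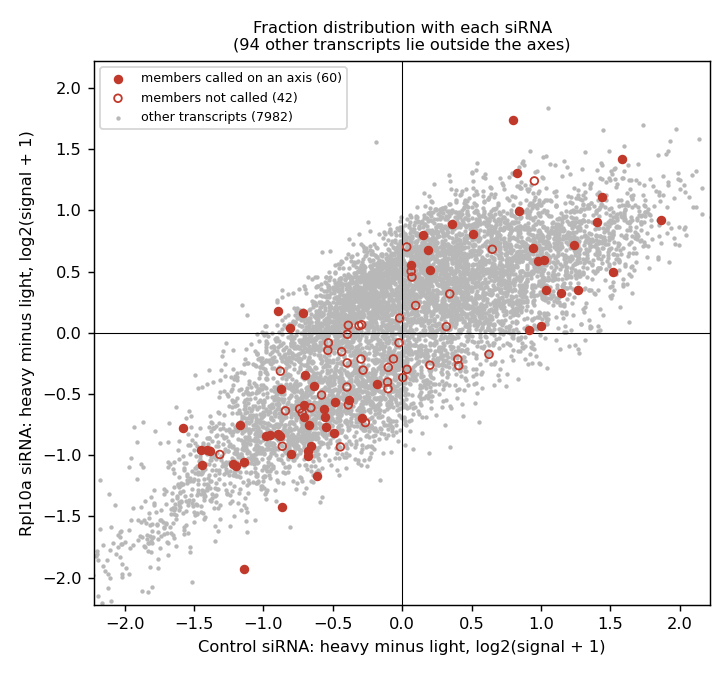
Heavy minus light difference in log2(signal + 1) with control siRNA (x axis) and with Rpl10a siRNA (y axis), for members called on an axis (60, filled red), members not called (42, open red) and 7982 other transcripts (grey, 94 of them outside the axes). Members lie along the same diagonal as the rest, with more of them at the lower left, the light side.

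The next question was whether the level of the members in each pool differed when Rpl10a was knocked down. In heavy pools, 25 members rose with Rpl10a siRNA relative to control siRNA (26.8% of all transcripts did) and 9 fell (22.7% of all), by limma at an adjusted p below 0.05. The median log2 change of the members was 0.13 and that of all transcripts 0.012. This split moved with the scaling, as did that of all transcripts. With library medians aligned, which put the median of all transcripts at −0.12, 18 members rose and 20 fell (20.9% and 30.6% of all). With library totals, which put it at 0.12, 27 rose and 7 fell (30.4% and 15.4% of all). Without the second control heavy library 10 rose and 2 fell (13.0% and 5.53% of all), and without the second Rpl10a heavy library 21 rose and 15 fell (28.5% and 24.2% of all). In the lowest level group by RNA, 16 of 58 members rose and 3 fell, where 22.4% and 7.42% of its transcripts did.

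uc007uzr.1 rose most in heavy pools, with 28.1 and 31.5 with Rpl10a siRNA, against 10.5 and 8.8 with control siRNA (log2 change 1.53, SE 0.17, limma adjusted p = 0.00184). uc007oha.2 had 9.6 and 16.5 with Rpl10a siRNA and 3.3 and 4.5 with control siRNA (1.49, SE 0.28, limma adjusted p = 0.00521). Among those that fell, uc008ggw.1 had 7.7 and 6.2 with Rpl10a siRNA, against 14.1 and 15.1 with control siRNA (−0.98, SE 0.22, limma adjusted p = 0.00879). Its call was lost without the second control heavy library. uc008eti.1 had 21.0 and 17.5 with Rpl10a siRNA and 39.6 and 29.4 with control siRNA (−0.80, SE 0.26, limma adjusted p = 0.0311), and this call was lost with library totals and without any 1 of the 4 heavy libraries. None of these 4 overlapped between siRNAs.

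In light pools, 5 members rose with Rpl10a siRNA (2.51% of all transcripts did) and 0 fell (3.61% of all), by limma at an adjusted p below 0.05. At an unadjusted p below 0.05, 19 members were higher and 7 lower (12.4% and 13.4% of all transcripts). The members' median change was 0.13, against 0.015 over all transcripts. A fit with replicate number as a block called more members higher and also called some lower (11.3% and 12.4% of all transcripts). Without any 1 of the 4 light or 2 control heavy libraries no member was called, where 0.0% of all transcripts rose in 5 of these 6 fits and 0.631% in the fit without the first Rpl10a light library. Without the first or the second Rpl10a heavy library 7 members rose (5.62% and 5.53% of all). Among the called members uc009mue.1 rose most, with 15.3 and 21.7 with Rpl10a siRNA, against 9.6 and 6.0 with control siRNA (log2 change 1.16, SE 0.25, limma adjusted p = 0.0410). A fit of the 4 light libraries alone did not call it. uc007htz.2 had 18.1 and 26.6 with Rpl10a siRNA and 9.0 and 9.9 with control siRNA (1.14, SE 0.24, limma adjusted p = 0.0355).

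The remaining 3 of the 5 were named after their values were seen, because the count is small. uc007uzr.1, which led in heavy pools, had 27.1 and 29.9 in light pools with Rpl10a siRNA, against 14.7 and 11.3 with control siRNA (log2 change 1.08, SE 0.17, limma adjusted p = 0.0336). uc033iwc.1 had 159.6 and 171.3 with Rpl10a siRNA, against 89.9 and 74.5 with control siRNA (1.01, SE 0.17, limma adjusted p = 0.0336). uc007izh.2 had 231.0 and 252.9 with Rpl10a siRNA and 146.8 and 151.2 with control siRNA (0.69, SE 0.14, limma adjusted p = 0.0336). Of the 5, 4 also rose in heavy pools and uc033iwc.1 did not pass there (0.21, SE 0.17, limma adjusted p = 0.322). A rise in both pools was called for 1.40% of all transcripts.

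**Figure D5:**
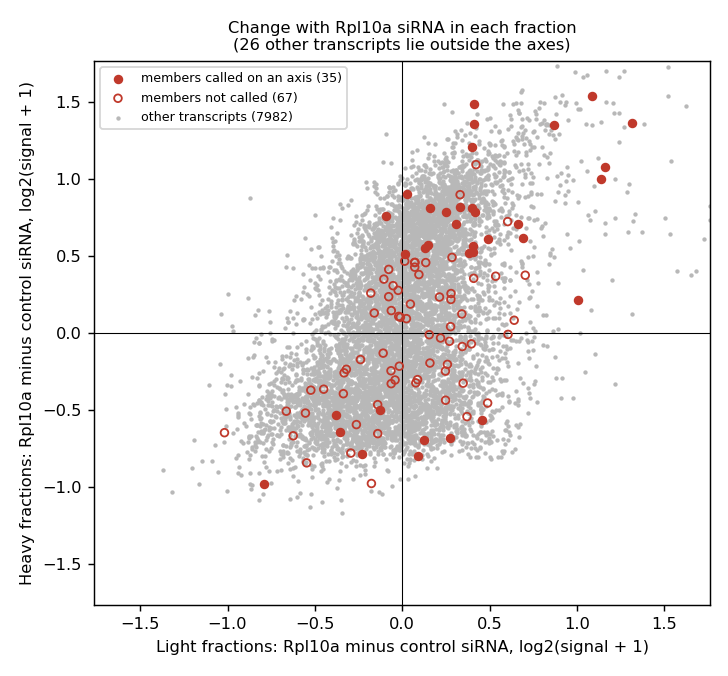
Change with Rpl10a siRNA relative to control siRNA in log2(signal + 1), in light pools (x axis) and heavy pools (y axis), for members called on an axis (35, filled red), members not called (67, open red) and 7982 other transcripts (grey, 26 of them outside the axes). Members called in heavy pools spread over a wide vertical range, and 5 were called in light pools, at changes of 0.69 to 1.16 (4 of them also higher in heavy pools).

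The polysome shift compares heavy minus light with Rpl10a siRNA to heavy minus light with control siRNA. A negative shift means that the heavy value was lower relative to the light value under Rpl10a siRNA. As each library was scaled on its own, it does not measure what share of an mRNA was in the heavy pool. Of the 102 members, 2 shifted toward light (3.57% of all transcripts did) and 0 toward heavy (2.86% of all), by limma at an adjusted p below 0.05. At an unadjusted p below 0.05, 6 were positive and 8 negative, where 17.3% and 13.1% of all transcripts were. The members' median shift was 0.038, with quartiles of −0.33 and 0.36, and the median of all transcripts was 0.088. With library medians aligned the median of all was −0.022 and that of the members −0.072. A fit with replicate number as a block called more members in both directions (18.1% of all transcripts toward heavy and 13.1% toward light). The number called thus depended on this setting, and the counts are given with the other settings below.

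uc009tku.1 had a heavy signal of 56.7 and 61.8 and a light signal of 31.0 and 30.7 with Rpl10a siRNA. Under control siRNA its heavy signals were 93.0 and 97.9 and its light signals 24.9 and 25.9, which gave a log2 shift of −0.95 (SE 0.16, limma adjusted p = 0.0322). uc008cfi.2 had 56.2 and 73.1 in heavy and 40.6 and 50.2 in light pools with Rpl10a siRNA. Its control siRNA values were 89.0 and 102.5 in heavy and 32.7 and 32.5 in light pools, for a shift of −1.03 (SE 0.23, limma adjusted p = 0.0435). Both were called on the heavy side with either siRNA, and both fell in heavy pools with Rpl10a siRNA. Both shift calls were lost without a variance trend, where 0.0% of all transcripts were called in either direction. Most fits without 1 library lost them too, together with the calls of all other transcripts, and such fits leave 1 library in a group. Over all fits without 1 library the shift ran from −1.21 to −0.84 for uc008cfi.2 and from −1.01 to −0.89 for uc009tku.1.

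A few members were split by replicate in the RNA-seq arm. Replicate 1 was more than 2-fold above replicate 2, on the scale of signal + 1, in all 4 groups for 3 members (0.26% of all transcripts), uc007vde.1, uc008ijz.1 and uc009kvb.2, a pattern chosen after the values were seen. The same split with replicate 2 on top was found for 0 members and 0.0495% of all transcripts. uc008ijz.1 had 23.3 and 1.1 in heavy and 33.5 and 2.5 in light pools with Rpl10a siRNA, and 12.4 and 0.4 in heavy and 23.9 and 1.1 in light pools with control siRNA. uc007vde.1 had 33.7 and 4.9 in heavy and 20.5 and 2.6 in light pools with Rpl10a siRNA, and 15.7 and 1.7 in heavy and 12.9 and 2.1 in light pools with control siRNA. Both are the members named above for the largest smaller ratio. In the RPL10A IP their replicate 2 was the higher one, and in that line's total libraries their replicates lay within 1 RPKM of each other. uc009kvb.2 had 32.1 and 13.0 in light pools with Rpl10a siRNA, against 30.0 and 11.4 with control siRNA. The labels do not say that replicates came from separate cultures, and what set them apart was not tested. A library pools many cells, so fewer cells with a transcript and less of it per cell cannot be told apart either.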

How the data were processed

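The authors deposited 1 table per library. Ribo-Seq tables hold RPKM values per UCSC transcript, per the file headers. RNA-seq tables are headed RPM, but their sums differ from that of such a scale, so the deposited values were treated as a scaled signal. The submitters' processing notes name cutadapt, Bowtie2 and the mm10 build, and STAR also for the RPL22 and RNA-seq libraries. Versions, transcript filters and further scaling: not given in the sources used here. Low RNA-seq values took successive values at the 1 decimal of the files, so no step of 1 read could be resolved and no count test was run. The RPKM values were not searched for one.

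Members followed the thresholds stated above. Members, lists and tests were chosen with earlier results of these data known. Tests used limma 3.58.1 (R 4.3.3) on log2(value + 1) with a variance trend and no filter on low values, two-sided. Benjamini-Hochberg adjustment ran over all transcripts of the table (8588 for RPL22, 8084 for RNA-seq). A trial on simulated data drew each library independently, without the correlation of same-numbered libraries given below. The log2(value + 1) scale understates changes of low transcripts. The RPL22 fit used 4 libraries and the RNA-seq fit all 8. A permutation of 2 against 2 libraries cannot go below p = 0.333, so none was used. Replicates shared at most 1.53% identical values. Up to 2 transcripts per direction and comparison were named: the most changed called members without overlap between groups, or, with no call, the smallest unadjusted p. The members with the largest smaller ratio, the extremes of level and those nearest to a threshold were also named.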

Additional observations from a re-analysis of the deposited data

Results flagged for a closer look

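For 2 members the difference between heavy and light pools differed between siRNAs by limma's interaction test at an adjusted p below 0.05. Both shifted toward light, as did 3.57% of all transcripts, while 2.86% of all shifted toward heavy. Both calls were lost without a variance trend, where 0.0% of all transcripts were called in either direction. A fit with replicate number as a block called more members in both directions (18.1% of all transcripts toward heavy and 13.1% toward light). The log2 shift, Rpl10a siRNA minus control siRNA, was −1.03 for uc008cfi.2 and −0.95 for uc009tku.1. With 2 libraries per group, no group was large enough to look for single outlying samples.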

How the results depend on the processing

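Under other settings, 241 values of counts and medians stayed close to those reported and 50 moved. Of values for named transcripts called as reported, 227 kept the call and 36 lost it. The 1 named without a call gained one with the replicate block and had none in 10 other values, and 0 values changed sign. The rule gave 16 members with both ratios at least 1 and 35 with a pseudocount of 5; without 1 of its libraries, an alternative chosen after seeing the data, it gave 67 to 146. Replicate numbers pair no samples by the labels. Deviations of same-numbered libraries correlated across transcripts with r = 0.176 in the RPL22 line and 0.403 to 0.622 between RNA-seq groups. With a replicate block, members called higher and lower were 6 and 2 for the RPL22 IP (4.56% and 3.49% of all transcripts), 38 and 25 for the knockdown in heavy pools (34.1% and 30.9%), 16 and 8 in light pools (11.3% and 12.4%), and 8 and 9 for the shift (18.1% and 13.1%), with 51 called light under control siRNA (33.9%). With a replicate block per siRNA, 51 were light under control siRNA (35.4%) and the shift was called for 8 and 12 (22.3% and 14.6%). Without a variance trend the shift had 0 calls among members (0.0% of all). With medians aligned, 20 members fell in heavy pools, and medians were −0.0059 there and 0.031 for the RPL22 IP. With library totals they were 0.23 and −0.083. A pseudocount of 5 gave −0.26 for heavy minus light with control siRNA. Without single libraries, RPL22 calls stayed at 0 and its median between −0.0061 and 0.018. In heavy pools 10 to 23 members rose, 2 to 15 fell and the median was 0.0086 to 0.17. In light pools 0 to 7 rose and the median was 0.060 to 0.26. For the shift, 0 to 4 were higher and 0 to 6 lower, with a median of −0.16 to 0.11. Heavy minus light had medians of −0.43 to −0.17 with Rpl10a siRNA and −0.47 to −0.23 with control siRNA, with 20 to 36 called light under control siRNA. The fits without single libraries left 1 library in a group. In the RNA-seq arm, the shares of all transcripts called moved between these fits too. The ranges of calls therefore describe the fits and not the members alone. Read depth is unknown, so counting error behind low values could not be given.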
